A study of Sus scrofa with 16 samples.

Results

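The miR-99/100 and miR-125 families of the pig (Sus scrofa) are described here in ovaries taken in the luteal and follicular phases. Members were the entries of the deposited miRNA count table named ssc-miR-99a, ssc-miR-99b, ssc-miR-100, ssc-miR-125a or ssc-miR-125b, with any arm or copy suffix allowed. This rule found 5 of the 1940 entries, all 5 among the 216 known miRNAs, and it used no measured value. Small RNA of the ovary was sequenced in 16 Canadian Large White sows, with 1 library per sow and 4 sows per group. The LH group (high fecundity) and the LL group (low fecundity) were in the luteal phase, on day 14 counted from the first day of estrus. The FH group (high fecundity) and the FL group (low fecundity) were in the follicular phase, on day 20. No sow was treated, and fecundity was a classification of the sows and not an intervention. By the study's records the LH and LL sows also differed in parity without overlap.

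miRNAs are short RNAs that guide Argonaute proteins to messenger RNAs, chiefly through the seed, the bases near their 5′ end, and so lower the output of those messages. miR-99a, miR-99b and miR-100 share a seed and are known to act on MTOR and IGF1R, components of growth signalling. miR-125a and miR-125b share a different seed, are the mammalian relatives of the worm miRNA lin-4, and are known to act on LIN28 and other regulators of cell growth and survival. In mammals the 2 families are transcribed in clusters that also carry a let-7 miRNA. In the mouse ovary, miR-125b is known from the granulosa cells that line the follicle, where it was linked to their survival.

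The arrangement in clusters could be read from RefSeq's gene table of the pig, assembly Sscrofa11.1, which was used for names and order only because the study mapped to Sscrofa10.2. In it MIR125A, MIRLET7E and MIR99B follow each other directly, MIR125B-1, MIRLET7A-1 and MIR100 follow each other directly, and MIR99A is next to MIRLET7C. The genes looked up for the 5 members thus lie at 3 loci, and each locus has a let-7 gene as a neighbour. For miR-125b only MIR125B-1 was looked up. Further gene copies of the members were not searched for, so a member may also be read from another locus. Mature sequences of the 5 members are not printed here. The study's list of predicted miRNAs holds 3 entries that begin with the seed of the miR-125 family, and these are shown because their reads resemble those of miR-125. Bases 2 to 8, the seed, are in capitals, and each sequence runs 5′ to 3′.
NovelmiRNA-1069: uCCCUGAGacccuagcuua
NovelmiRNA-184: uCCCUGAGacccuacugau
NovelmiRNA-1157: uCCCUGAGacccuacugauu
NovelmiRNA-1069 was placed by the study at chr2:5036447-5036499 on the plus strand of Sscrofa10.2. NovelmiRNA-184 and NovelmiRNA-1157 were placed at chrX:21149881-21149936 and chrX:21149880-21149937 on the minus strand, so they are overlapping entries of 1 place. NovelmiRNA-1069 shares its first 14 bases with the other two. Only these 3 of the 1700 predicted miRNAs with a listed mature sequence carried these 7 letters at bases 2 to 8. NovelmiRNA-1069 had counts in all 16 libraries, between 135 and 4469, whereas the other two never exceeded 8 counts in a library.

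Library totals ran from 8998496 to 37194836 counts. Pearson correlations of log2 levels between libraries of a group, computed over the 216 known miRNAs (miRNAs of 1 library are not replicates), ran from 0.882 to 0.987. miR-202-5p, a miRNA of the gonads, was above 0 in all 16 libraries, with group means of 1930 CPM (LH), 2203 CPM (LL), 802 CPM (FH) and 323 CPM (FL). Presence alone does not settle the tissue, since the liver miRNA miR-122 was above 0 in all 16 too. Its group means were 47.6 CPM (LH), 8.48 CPM (LL), 21.4 CPM (FH) and 446 CPM (FL). In FL2 miR-122 stood at 1363 CPM, against 302 CPM for miR-202-5p. The summed level of 5 miRNAs of ciliated or tubal epithelium (miR-34c, miR-429, miR-205, miR-182 and miR-183) set 3 libraries apart: 21828 CPM in LH4, 7510 CPM in FL2 and 16082 CPM in FL4, against 145 to 1118 CPM in the other 13. Results of the members that these 3 libraries enter are therefore also given without them where a call changed. Calls of the other miRNAs named, markers among them, are not given without these 3 libraries. Levels are given as CPM, which are counts relative to the library total after TMM normalization, a scaling that sets libraries against each other by the bulk of their miRNAs. In whole ovary, fewer cells of a type and less RNA per cell cannot be told apart.

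All members but miR-99b were among the most abundant miRNAs of the ovary. Together the 5 held 3.75% to 23.1% of all counts of a library. miR-99a ranked between 1st and 9th among the known miRNAs of a library, miR-125b between 7th and 30th, miR-100 between 16th and 33rd and miR-125a between 25th and 44th. miR-99b was at 0 in 10 libraries and ranked between 41st and 52nd in the other 6. The order of the counts was miR-99a, miR-125b, miR-100, miR-125a and miR-99b from high to low in 16 of 16 libraries. This order compares read counts, since the lengths of the mature members are not in the files used here. The step from miR-99a to miR-125b was 4.04-fold in LL1, where it was smallest, and 16.1-fold in FL1. The step from miR-125b to miR-100 was far smaller in LL2, at 1.00-fold (46073 against 45998 counts), and had a median of 1.92-fold over the 16 libraries. Between miR-100 and miR-125a the ratio ran from 1.26-fold in LL2 to 5.13-fold in FL1.

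**Figure D1:**
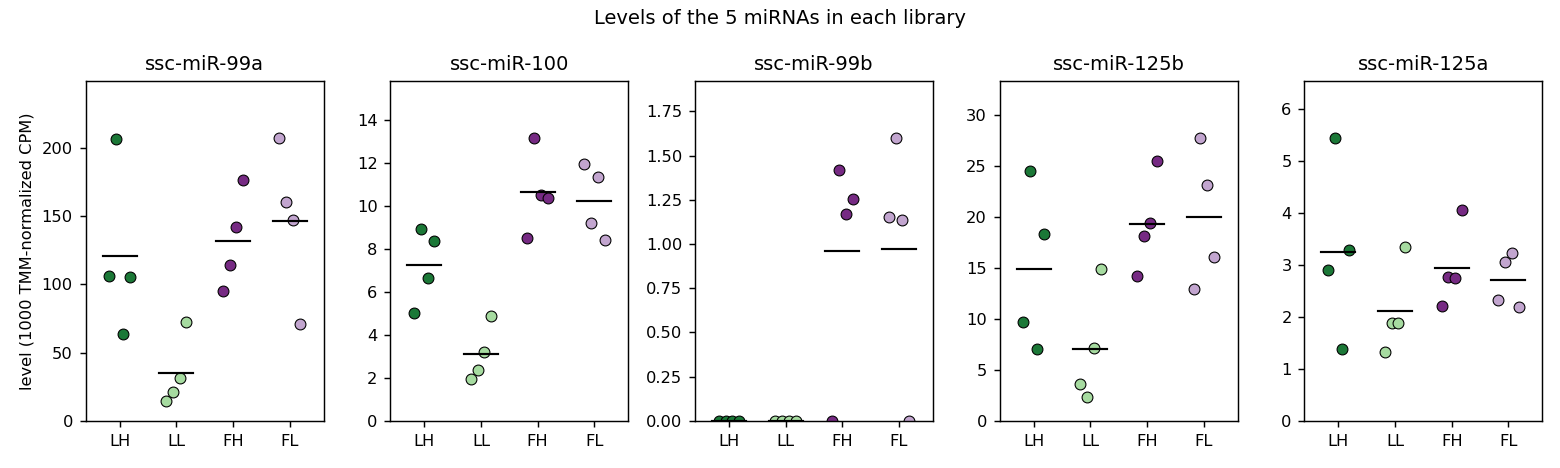
Level of each of the 5 miRNAs in each library, in units of 1000 TMM-normalized CPM on a linear axis that starts at 0, with a panel per miRNA and its own scale; points are libraries (n = 4 per group) and bars are group means. miR-99a, miR-100 and miR-125b have their lowest group mean in LL, and miR-99b is at 0 in every LH and LL library and in 1 library each of FH and FL.

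miR-99a dominated its family and made up 88.3% to 95.9% of the summed counts of miR-99a, miR-99b and miR-100 in a library. It stood at 106065, 206519, 63904 and 105703 CPM in LH1 to LH4, at 14637, 20923, 31440 and 72587 CPM in LL1 to LL4, at 95051, 114462, 142321 and 176746 CPM in FH1 to FH4 and at 207580, 160735, 147364 and 70846 CPM in FL1 to FL4. The LL libraries were low, with LL4 above the lowest LH library, LH3, and above the lowest FL library, FL4. The other 3 groups lay in 1 range, with means of 120548 ± 60635 CPM in LH, 132145 ± 35503 CPM in FH and 146631 ± 56738 CPM in FL (SD, n = 4), against 34897 ± 26065 CPM in LL.

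miR-100, which differs from miR-99a by little outside the shared seed, was present at a lower level but in a narrower range. Its levels were 5012, 8928, 6641 and 8366 CPM in LH1 to LH4, 1944, 2372, 3188 and 4876 CPM in LL1 to LL4, 8492, 13179, 10500 and 10361 CPM in FH1 to FH4 and 11935, 9217, 11362 and 8414 CPM in FL1 to FL4. All 4 LL libraries lay below all libraries of the other 3 groups in TMM-normalized CPM. In percent of all counts LL and LH overlapped, with 0.576% in LL4 against 0.534% in LH1 and 0.565% in LH3. LH lay mostly below FH and FL, with LH2 above the lowest library of each.

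miR-125b was the second most abundant member. It stood at 9683, 24592, 7079 and 18383 CPM in LH1 to LH4, at 3626, 2376, 7148 and 14905 CPM in LL1 to LL4, at 14219, 18149, 19392 and 25509 CPM in FH1 to FH4 and at 12911, 27819, 23127 and 16068 CPM in FL1 to FL4. LL4, the highest LL library, overlapped with each of the other 3 groups. miR-125a, from the cluster of miR-99b, was 2894, 5444, 1381 and 3278 CPM in LH1 to LH4, 1332, 1879, 1890 and 3339 CPM in LL1 to LL4, 2201, 2761, 2738 and 4050 CPM in FH1 to FH4 and 2328, 3052, 3228 and 2197 CPM in FL1 to FL4. The 4 groups of miR-125a overlapped throughout.

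**Figure D2:**
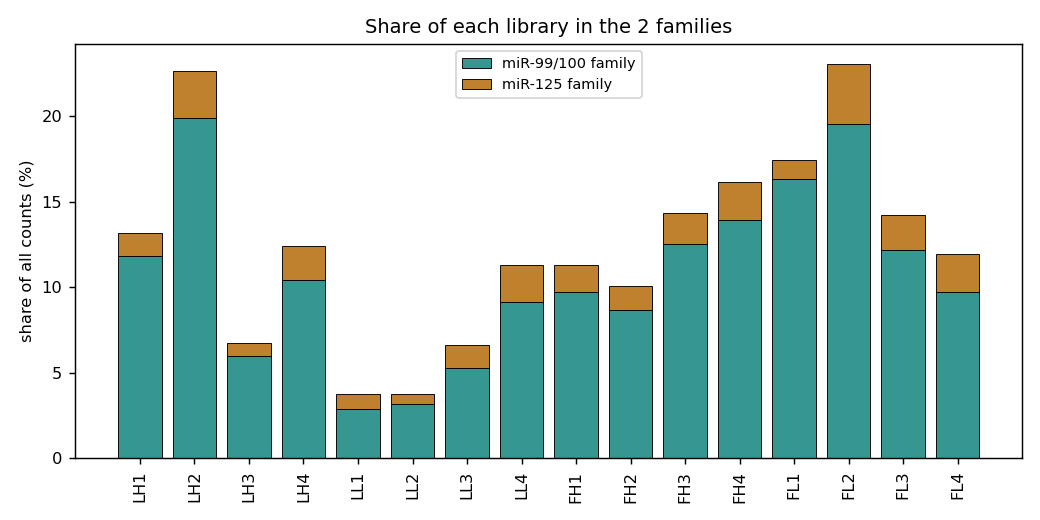
Share of all counts of each library, in percent, held by the miR-99/100 family (lower part of a bar) and by the miR-125 family (upper part), for the 16 libraries in the order LH, LL, FH and FL. The miR-99/100 family held 2.88% to 9.15% of the counts in the LL libraries and 5.998% to 19.9% in the other 12, and the miR-125 family held 0.582% to 3.52% over all 16.

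LH vs. LL asked how ovaries of high and low fecundity differed in the luteal phase. miR-99a and miR-100 were down-regulated in LL, miR-125a and miR-125b did not pass the test, and miR-99b had no count in either group. The test was edgeR's quasi-likelihood test over the 8 libraries, and a miRNA was called when its unadjusted P was under 0.05 and its log2 fold change was at least 1 in size, which is the study's threshold. Of the 362 miRNAs tested 13.0% were called (6.35% of all tested in the lower direction), and 2 of the 4 members tested were called, both lower. The log2 fold change (LL over LH) was -1.81 ± 0.576 for miR-99a (SE, adjusted p = 0.220 in edgeR's test), a 3.49-fold lower level. For miR-100 it was -1.22 ± 0.340 (SE, adjusted p = 0.202 in edgeR's test), a 2.33-fold lower level. Neither passed the Benjamini-Hochberg adjusted threshold of 0.05, which 3 of the 362 miRNAs tested did.

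miR-125b had a log2 fold change of -1.11 ± 0.644 (SE, adjusted p = 0.405 in edgeR's test), and miR-125a one of -0.64 ± 0.460 (SE, adjusted p = 0.529 in edgeR's test). Without LL4, the LL library with the highest level, the log2 fold change of miR-125b was -1.82 and it was called. The median over the 4 members tested was -1.17, beside 0.15 over all miRNAs tested. miR-100 did not overlap between LH and LL, which was so for 15.7% of all miRNAs tested, and miR-99a, miR-125a and miR-125b overlapped. The calls changed when either of 2 measures of the sows and libraries was added to the fit. With parity as a covariate miR-99a was no longer called (log2 fold change -2.53) and miR-100 was (-2.22). The SE of miR-99a then rose from 0.576 to 1.65. Parity did not overlap between LH and LL, so this fit can hardly separate it from fecundity. With the share of clean reads as a covariate neither was called (-1.30 and -0.85).

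FH vs. FL put the same question in the follicular phase. Of the 307 miRNAs tested 6.19% were called, and none of the 5 members was among them. The log2 fold changes (FL over FH) were 0.19 ± 0.406 for miR-99a, -0.08 ± 0.281 for miR-100, -0.14 ± 0.237 for miR-125a and 0.00 ± 0.265 for miR-125b (SE, n = 4 per group), with adjusted p from 0.868 to 0.995 in edgeR's test. Each value was smaller than its SE, and their signs changed with single libraries or settings. miR-99b was at 0 in 1 library of each group and is described further on. The means of miR-100 were 10633 ± 1929 CPM in FH and 10232 ± 1684 CPM in FL, and those of miR-125b were 19317 ± 4680 and 19981 ± 6748 CPM (SD, n = 4).

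**Figure D3:**
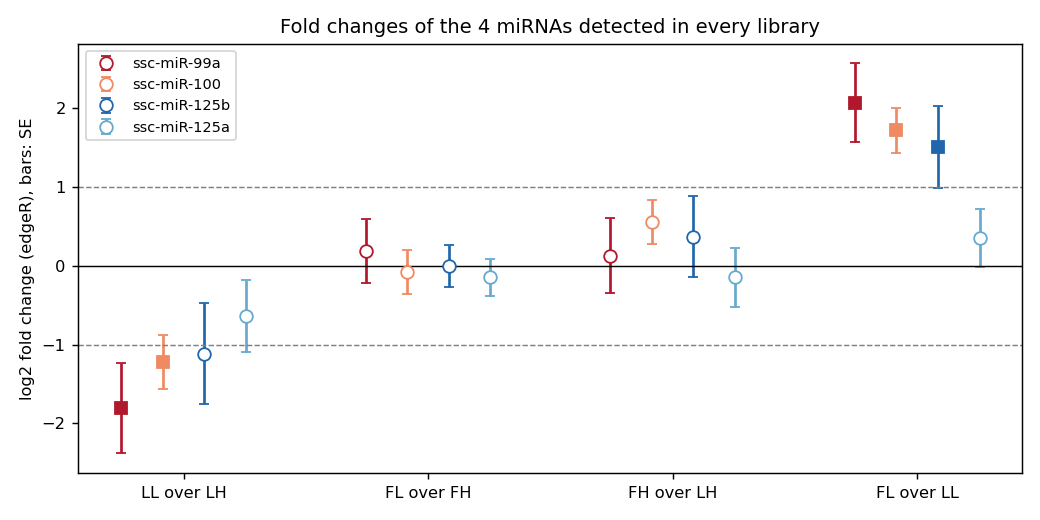
Log2 fold changes of the 4 miRNAs with counts in every library, with SE bars, from edgeR's test in 4 comparisons. Filled squares passed the study's threshold and open circles did not, and dashed lines mark log2 fold changes of -1 and 1; FL over LL has 3 filled squares at 1.51 to 2.07, and LL over LH has 2 at -1.81 and -1.22.

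Between the phases of the low fecundity sows, miR-99a, miR-100 and miR-125b were higher in FL than in LL, and miR-125a did not pass the test. In LL vs. FL, 30.1% of the 445 miRNAs tested were called, 16.4% of all tested in the higher direction, and these 3 of the 4 members with counts in every library were called. miR-99b is left out of this count, since it was at 0 in every luteal library and entered the test only through follicular ones, and its counts are described further on. The log2 fold change (FL over LL) was 2.07 ± 0.501 for miR-99a (SE, adjusted p = 0.0151 in edgeR's test), a 4.20-fold higher level. It was 1.73 ± 0.286 for miR-100 (SE, adjusted p = 0.00188 in edgeR's test), a 3.31-fold higher level. miR-125b passed the study's threshold with 1.51 ± 0.525 and not the adjusted one (SE, adjusted p = 0.0665 in edgeR's test). miR-125a had 0.36 ± 0.371 (SE, adjusted p = 0.580 in edgeR's test). These phase comparisons were fitted on all 16 libraries, so that the 4 groups share 1 estimate of the spread, and LL enters both this comparison and LH vs. LL.

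The adjusted threshold was passed by 15.5% of all miRNAs tested and by miR-99a and miR-100. Only miR-100 passed it when LL1, LL2, LL3 or FL1 was left out, while miR-99a, miR-100 and miR-125b remained past the study's threshold without any single library. With LH4, FL2 and FL4 left out together 2 members were called, since miR-125b was no longer called (log2 fold change 1.30). Of these 2, miR-100 then passed the adjusted threshold and miR-99a did not. DESeq2 without a filter or outlier handling called 0 of the 4 in LH vs. LL and in LL vs. FL. miR-100 did not overlap between LL and FL, which held for 22.9% of all miRNAs tested, and miR-99a overlapped through LL4 and FL4 and miR-125b through LL4 and FL1. The median over these 4 members was 1.62, beside -0.13 over all miRNAs tested.

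In LH vs. FH, the phases of the high fecundity sows, the fold changes were smaller. Of 445 miRNAs tested, 12.8% were called, and none of the 4 members with counts in every library was among them. The log2 fold changes (FH over LH) were 0.13 ± 0.482 for miR-99a, 0.56 ± 0.279 for miR-100, -0.15 ± 0.371 for miR-125a and 0.37 ± 0.514 for miR-125b (SE, n = 4 per group), with adjusted p of 0.326 for miR-100 and of 0.821 or more for the other 3 in edgeR's test. Averaged over the fecundity groups, 23.4% of the miRNAs tested were called between the phases and 17.5% passed the adjusted threshold. miR-99a, with a log2 fold change of 1.10 ± 0.345 (SE, adjusted p = 0.0377 in edgeR's test), and miR-100, with 1.14 ± 0.199 (SE, adjusted p = 0.00222 in edgeR's test), were called higher in the follicular phase. miR-125b, at 0.94 ± 0.366 (SE, adjusted p = 0.0911 in edgeR's test), missed the fold limit, and miR-125a was at 0.11 ± 0.262 (SE, adjusted p = 0.819 in edgeR's test). The average of miR-99a fell to 0.98 without LL1 and to 0.95 without FL1, and was then not called. With single libraries left out in turn, its adjusted p was above 0.05 for 13 of 16 libraries and reached 0.107. With LH4, FL2 and FL4 left out together, miR-99a did not pass the adjusted threshold either.

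Whether the fecundity difference itself differed between the phases was tested as an interaction, the log2 fold change of FL over FH minus that of LL over LH. Of the miRNAs tested 13.3% were called, and 2 of the 4 members with counts in every library were among them. The interaction was 1.94 ± 0.687 for miR-99a (SE, adjusted p = 0.193 in edgeR's test). For miR-100 it was 1.17 ± 0.395 (SE, adjusted p = 0.169 in edgeR's test). miR-125b had 1.14 ± 0.728 and miR-125a 0.50 ± 0.525 (SE), with adjusted p of 0.492 and 0.748 in edgeR's test. No miRNA of the table passed the adjusted threshold in this test, while 63 miRNAs had an edgeR P below 0.05 before adjustment. Without LL4 miR-125b was called too, at 1.80, and with LH4, FL2 and FL4 left out miR-100 was not, at 1.25.

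The scaling of the libraries carried part of these values. When libraries were scaled by their totals alone, the median of all miRNAs tested moved by 0.58 in LH vs. LL, by 0.32 in FH vs. FL, by -0.21 in LH vs. FH and by -0.53 in LL vs. FL on the log2 scale. The directions of miR-99a, miR-100 and miR-125b in LH vs. LL and LL vs. FL stayed the same under that scaling, at -0.64 for miR-100 in LH vs. LL and at 1.05 for miR-125b in LL vs. FL, where these were no longer called, whereas miR-125a turned to -0.17 in LL vs. FL. When library sizes and TMM factors were computed without the 5 members, 2 of the 4 members with counts in every library were called in LH vs. LL and 3 in LL vs. FL, as before.

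Exact two-sided permutation tests on single values, which do not use the fitted spread, could not go below p = 0.0286 with 4 libraries against 4. On log2(CPM + 1) the exact tests gave that smallest value for miR-100 in LH vs. LL and in LL vs. FL, and p = 0.0571 for miR-99a in both and for miR-125b in LL vs. FL. After Benjamini-Hochberg adjustment over 20 exact tests the smallest adjusted p was 0.190. The summed miR-99/100 family had a mean of 37992 ± 27348 CPM in LL and 157836 ± 58636 CPM in FL (SD, n = 4), with no overlap between the groups (exact two-sided permutation test, p = 0.0286, adjusted p = 0.152 over 8 tests). Of the single miRNAs tested, 22.9% did not overlap in LL vs. FL. The summed miR-125 family had 9124 ± 6435 CPM in LL and 22683 ± 7198 CPM in FL (SD, n = 4, exact two-sided permutation test, p = 0.0571, adjusted p = 0.152).

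miR-99b was at 0 in some libraries and well counted in the others. It had 0 counts in all 8 luteal libraries and in FH1 and FL4. In the other 6 follicular libraries it had 12544 counts in FH2, 16575 in FH3, 34546 in FH4, 21269 in FL1, 16426 in FL2 and 11971 in FL3. These 6 libraries were close to each other, with a mean of 1288 ± 185 CPM (SD, n = 6) and a range of 1137 to 1601 CPM, and no library lay between them and 0. At 0 counts, a level of up to 3 counts in that library remains possible, which is 0.122 to 0.212 CPM of the library total over the 10 libraries at 0, and this limit covers counting error only, since reads were amplified without molecular identifiers.

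Against 3 counts in each luteal library, the mean over the 8 follicular libraries, 966 CPM, was 6973-fold higher. That value takes counting as the only source of the zeros, and it sets no lower bound on a difference between the phases. miR-99b was the only known miRNA at 0 in all luteal libraries and above 0 in at least 5 follicular ones. It was one of 16 known miRNAs that were at 0 in a library and over 1000 counts in another. The leukocyte miRNA miR-142-5p was another, at 0 in LH1 to LH4, LL2 and FL1 and at 1489 to 9079 counts in the other libraries. The cluster neighbours of miR-99b did not share its zeros: miR-125a had 23581 counts or more and let-7e 7394 counts or more in every library. How the authors assigned reads to an entry is not given in the sources used here, and whether assignment bore on the zeros was not tested. In the 6 libraries with counts, miR-99a stood 80.9-fold to 180-fold above miR-99b.

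A ratio of 2 members in the same library does not depend on its total or on TMM. The miR-125b to miR-125a ratio compares relatives that share a seed, and the genes looked up for them lie at different loci. It was 3.35, 4.52, 5.13 and 5.61 in LH1 to LH4, 2.72, 1.26, 3.78 and 4.46 in LL1 to LL4, 6.46, 6.57, 7.08 and 6.30 in FH1 to FH4 and 5.55, 9.11, 7.17 and 7.31 in FL1 to FL4. Both follicular groups lay above the luteal group of the same fecundity, with no overlap in either comparison. Levels of single miRNAs did not overlap for 8.99% of those tested in LH vs. FH and 22.9% in LL vs. FL. No such share was computed for ratios. The log2 ratio of miR-125b to miR-125a was 0.53 higher in FH than in LH and 1.38 higher in FL than in LL (exact two-sided permutation tests, p = 0.0286 each, adjusted p = 0.200 over 14 tests). It did not differ beyond the spread in LH vs. LL (-0.73, p = 0.114) or FH vs. FL (0.12, p = 0.543, exact two-sided permutation tests).

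The miR-99a to miR-100 ratio and the miR-99a to miR-125b ratio overlapped in all 4 comparisons. miR-99a over miR-100 had means of 16.6 ± 6.53 (LH), 10.3 ± 3.22 (LL), 12.6 ± 3.56 (FH) and 14.1 ± 4.30 (FL), each with SD and n = 4. The difference in LH vs. LL was -0.65 on the log2 scale (exact two-sided permutation test, p = 0.171). miR-99a over miR-125b had its highest value in FL1, at 16.1, and its narrowest range in FH, at 6.31 to 7.34. Its difference in LH vs. LL was -0.66 on the log2 scale (exact two-sided permutation test, p = 0.0857).

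**Figure D4:**
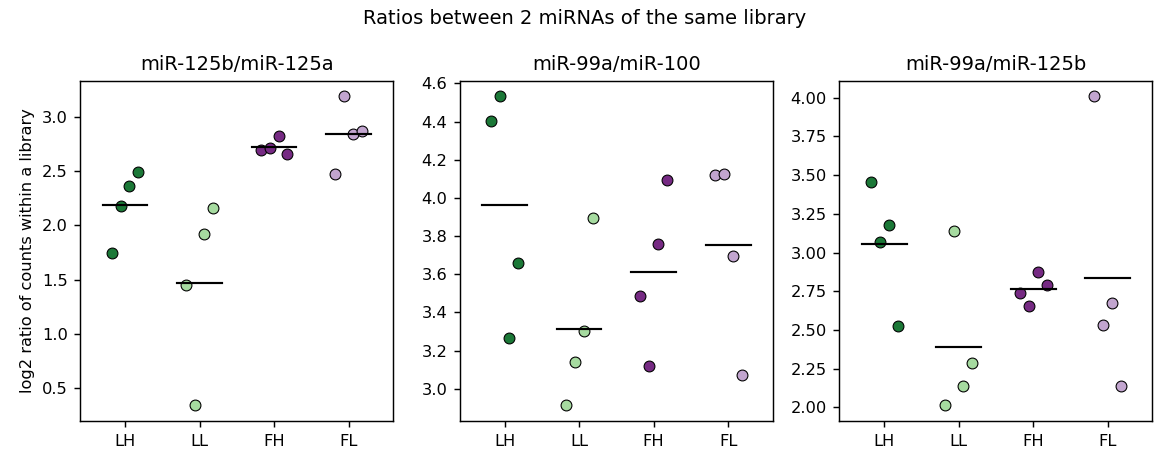
Log2 ratio of the counts of 2 miRNAs in the same library for 3 pairs, with points for libraries (n = 4 per group) and bars for group means; each panel has its own axis, which does not start at 0. For miR-125b over miR-125a all FH libraries lie above all LH libraries and all FL libraries above all LL libraries, and in the other 2 pairs the groups overlap.

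Over the 16 libraries the levels of most members ran together. For each member the 3 miRNAs with the highest Pearson r of log2(CPM + 1) were taken among the 444 others tested, as a description, since the libraries share groups and scaling. For miR-99a these were miR-100 (r = 0.917), miR-125b (0.889) and let-7c (0.882), its neighbour in the genome. For miR-100 they were miR-99a (0.917), let-7c (0.899) and miR-143-3p (0.891), and for miR-125b they were miR-99a (0.889), let-7c (0.883) and NovelmiRNA-1069 (0.877). miR-125a was most like miR-125b (0.775), miR-30c-5p (0.751) and miR-99a (0.751). miR-99b, with its zeros, was most like 3 predicted miRNAs, NovelmiRNA-272 (0.805), NovelmiRNA-1304 (0.803) and NovelmiRNA-94 (0.751). After each group's mean was taken away, r between miR-99a and miR-100 was 0.766, and r between miR-125a and its cluster neighbour let-7e was 0.204.

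**Figure D5:**
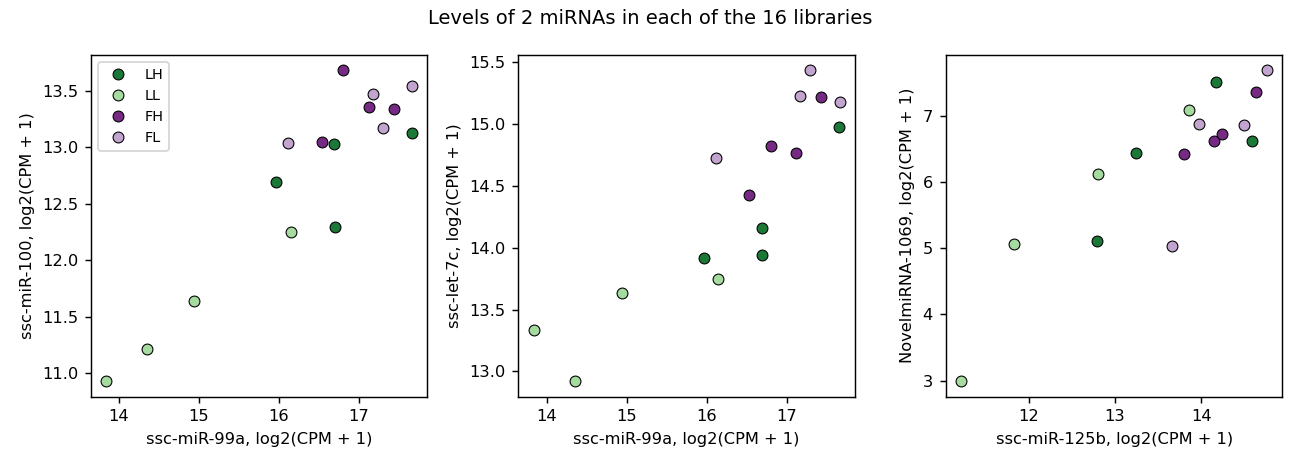
Levels of 2 miRNAs plotted against each other as log2(CPM + 1), for 3 pairs, with a point for each of the 16 libraries coloured by group. The LL libraries lie at the low end of miR-99a against miR-100 (r = 0.917) and of miR-99a against let-7c (r = 0.882), and LL2 is the lowest point of miR-125b against NovelmiRNA-1069 (r = 0.877).

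NovelmiRNA-1069, shown above with its seed in capitals, was followed because it begins like miR-125. Its counts came to 2.47 to 9.85 per 1000 counts of miR-125b. Its level was lowest in LL2, with 135 counts or 6.96 CPM, where miR-125b was lowest too, and highest in FL2, at 205 CPM, where miR-125b was highest. It was not called in any comparison, with log2 fold changes of -0.74 ± 0.860 in LH vs. LL and 0.95 ± 0.745 in LL vs. FL (SE), with adjusted p of 0.688 and 0.438 in edgeR's test. NovelmiRNA-184 and NovelmiRNA-1157 were too low to be tested.

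The let-7 neighbours of the 3 loci did not move as 1 group. let-7c, beside miR-99a, was called higher in FL than in LL with a log2 fold change of 1.72 ± 0.282 (SE, adjusted p = 0.00188 in edgeR's test). Its levels were 15705, 32227, 15508 and 18337 CPM in LH1 to LH4, 10340, 7755, 12721 and 13783 CPM in LL1 to LL4, 22022, 28967, 27891 and 38268 CPM in FH1 to FH4 and 37099, 44388, 38475 and 27189 CPM in FL1 to FL4. All LL libraries lay below all libraries of the other 3 groups in TMM-normalized CPM. As shares of all counts LL and LH overlapped for let-7c, with LL1 and LL3 above LH1, LH3 and LH4. In TMM-normalized CPM, 15.7% of all miRNAs tested did not overlap in LH vs. LL and 22.9% in LL vs. FL. let-7a, whose gene MIRLET7A-1 lies between MIR125B-1 and MIR100, had 0.28 ± 0.265 in LL vs. FL (SE, adjusted p = 0.534 in edgeR's test). let-7e, between miR-125a and miR-99b, had -0.04 ± 0.248 there (SE, adjusted p = 0.935 in edgeR's test). In LH vs. LL none of the 3 was called, with log2 fold changes of -0.57 for let-7a, -0.87 for let-7c and -0.52 for let-7e. let-7a can also be read from a further gene, MIRLET7A-2, which lies elsewhere. Of the 4 other let-7 miRNAs (let-7f, let-7g, let-7i and miR-98) none was called in LH vs. LL or LL vs. FL.

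miR-10a-5p and miR-10b, whose genes lie in the Hox clusters, are counted as distant relatives of miR-99 and miR-100 by sequence. miR-10a-5p was called lower in LL than in LH, at -3.21 ± 1.03 (SE, adjusted p = 0.220 in edgeR's test), and higher in FL than in LL, at 3.80 ± 0.884 (SE, adjusted p = 0.0124 in edgeR's test). miR-10b was not called in either, at -0.79 ± 0.302 and 0.82 ± 0.349 (SE), with adjusted p of 0.253 and 0.124 in edgeR's test. The LH value of miR-10a-5p leaned on LH4, 1 of the 3 libraries set apart above, with 7978 CPM against 427 to 1555 CPM in LH1 to LH3.

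Some markers of other cell types moved along with the members and others did not, and their part in the results was not tested. Both smooth muscle miRNAs, miR-143-3p and miR-145-5p, were called higher in FL than in LL, with log2 fold changes of 1.37 ± 0.282 and 2.53 ± 0.425 (SE, adjusted p = 0.00843 and 0.00188 in edgeR's test). Their summed level in TMM-normalized CPM was 71951 to 91143 CPM in LL, below the 111488 to 212844 CPM of LH. It was 170439 to 310982 CPM in FL and 232331 to 444650 CPM in FH. As shares of all counts LL and LH overlapped, with LL1 and LL3 above LH1 and LH2. In LH vs. LL neither smooth muscle miRNA was called, at -0.94 and -0.83. In LH vs. LL, 1 of 5 miRNAs of ciliated or tubal epithelium, a list that stood at 21828 CPM in LH4, was called lower, miR-34c at -7.63 ± 2.41 (SE, adjusted p = 0.220 in edgeR's test), as was 1 of 2 neural ones tested, miR-9 at -1.27 ± 0.433 (SE, adjusted p = 0.240 in edgeR's test). Neither miR-122, miR-126-5p nor miR-202-5p was called in LH vs. LL. In LL vs. FL, 4 of 5 skeletal or cardiac muscle miRNAs tested were called higher and 1 lower, 3 of 5 of ciliated or tubal epithelium were called higher and 2 lower, and the liver miRNA miR-122 was called higher. miR-202-5p of the gonads was called lower in FL, at -2.77 ± 0.655 (SE, adjusted p = 0.0135 in edgeR's test), and the endothelial miR-126-5p was called lower too. The summed skeletal or cardiac muscle level was 449 to 984 CPM in LL, 565 to 3034 CPM in FL, 1883 to 4256 CPM in FH and 2155 to 3256 CPM in LH, and 2 of its 5 miRNAs tested were called lower in LH vs. LL. No erythrocyte miRNA was called in LH vs. LL or LL vs. FL. Of the leukocyte miRNAs 1 of 3 was called higher in LL vs. FL and none of the 2 tested in LH vs. LL. miR-142-5p was not tested in LH vs. LL. It was at 0 in all LH libraries and in LL2, and at 227 to 256 CPM in LL1, LL3 and LL4. Of the neural miRNAs 1 was called higher and 1 lower in LL vs. FL.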

How the data were processed

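Small RNA of the ovary was sequenced in 16 sows. By the study's methods and the submitters' processing notes, the authors cleaned the reads, mapped them to Sscrofa10.2 with Bowtie2 2.1.0 and predicted further miRNAs. They deposited raw counts per miRNA and library, without normalization; how a read was assigned to an entry is not given in the sources used here. From the deposited counts, edgeR 4.0.16 under R 4.3.3 was run over all miRNAs (TMM factors, quasi-likelihood test, low counts removed by filterByExpr at its settings of 10 counts and a total of 15), with Benjamini-Hochberg adjustment, and only the rows named were printed. LH vs. LL and FH vs. FL used their 8 libraries, and phase and interaction contrasts a group means model of all 16. Sows were grouped by the labels. CPM come from the fit of 16 libraries, and exact tests used log2(CPM + 1). Library totals of 8998496 to 37194836 counts set the counting error, and a count of 0 was read against a floor of 3 counts. The labels give 1 sow per sample, so p-values measure the spread between sows.

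miRNAs named were the 5 members, their let-7 neighbours, miR-10a-5p and miR-10b, the other let-7 miRNAs, predicted miRNAs sharing a seed, the 3 most alike by r, and lists of cell type markers. The members and lists were chosen with earlier results of these data known. Since mature sequences of the members were not at hand, the seed rule was applied as the bases 2 to 8 of NovelmiRNA-1069, for the miR-125 family only. Alternatives were DESeq2 1.42.0, other scalings and filters, robust estimation, identical entries collapsed, other libraries in the fit, a replicate block, parity, clean read share, a pseudocount of 0.5 and leaving out each library; parity and clean read share came from the study's supplementary records. A further 2 were chosen after seeing the data: scaling without the members, and leaving out LH4, FL2 and FL4. Tests were checked on simulated data with 4-fold changes. Code ran in R and in Python for figures.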

Additional observations from a re-analysis of the deposited data

Results flagged for a closer look

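Within groups of 4, a library was set apart when its gap to the nearest other, on log2(CPM + 1), took up more of the group's range than Dixon's limit, which chance exceeds in about 1 of 20 groups. Of 18 combinations of a member and a group with any spread, 2 exceeded it, both for miR-99b. In FH1 the gap was 0.974 of the range, with 0 CPM against 1169 to 1416 CPM in FH2 to FH4. In FL4 it was 0.954 of the range, with 0 CPM against 1137 to 1601 CPM in FL1 to FL3. FL4 was also 1 of the 3 libraries with a high summed level of ciliated or tubal epithelium miRNAs, at 16082 CPM, and FH1 was not, at 300.4 CPM.

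In the interaction test 2 members passed the study's unadjusted threshold, as did 13.3% of all miRNAs tested, and no miRNA passed the adjusted one. miR-100 was no longer called by library size only or with LH4, FL2 and FL4 left out. DESeq2 without filter or outlier handling called neither member. The interaction was 1.94 on the log2 scale for miR-99a and 1.17 for miR-100, with adjusted p of 0.193 and 0.169 in edgeR's test. Both were lower in LL than in LH, and neither was called in FH vs. FL.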

How the results depend on the processing

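The number of members called held within 1.5 times when any single library was left out (2 to 3 in LH vs. LL, 0 in FH vs. FL, 1 in LH vs. FH, 4 in LL vs. FL, 2 to 4 for both phases and 2 to 3 for the interaction). Phase comparisons count miR-99b, tested only through follicular libraries. The cause of the changes that follow was not tested. DESeq2 without filter or outlier handling lowered the members called to 0 in LH vs. LL, 1 in LL vs. FL, 1 for both phases and 0 for the interaction, and the 1 left in each phase comparison was miR-99b. Scaling by library size only gave 1 in LH vs. LL, 1 for both phases, again miR-99b, and 1 for the interaction. In LH vs. LL parity as a covariate gave 1 and clean read share gave 0, LH vs. FH gave 0 when only its 8 libraries were fitted, and the interaction gave 1 with LH4, FL2 and FL4 left out. Adjusted p was under 0.05 for 2 members in LH vs. LL under DESeq2 with the same filter. The interaction had 1, miR-99a, under that setting and edgeR with no filter. LL vs. FL had 1, miR-100, with 8 libraries only or without LL1, LL2, LL3 or FL1. With LH4, FL2 and FL4 left out together, miR-100 passed there and miR-99a did not. The 1 in LH vs. FH, under DESeq2 with either filter and edgeR with no filter, was miR-99b. So was the 1 in LL vs. FL and for both phases under DESeq2 without filter.

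Values near 0 changed sign. In FH vs. FL miR-125b, at 0.00, turned to -0.048 under DESeq2 with the same filter and RLE scaling, to -0.053 under DESeq2 without filter, to -0.051 with scaling without the members, to -0.033 with a minimum of 10 counts in 4 libraries, to -0.021 with identical entries collapsed, to -0.18 with clean read share and to -0.088 without LH4, FL2 and FL4. miR-100, at -0.08, turned to 0.22 by library size only, 0.015 by TMM on known miRNAs, 0.40 with parity, 0.20 with clean read share and 0.18 without those 3 libraries. Library size only also turned miR-125a to 0.18 in FH vs. FL, -0.17 in LL vs. FL and -0.30 for both phases, and miR-99a to -0.14 in LH vs. FH. On log2(CPM + 1) it turned the mean difference of miR-99a in LH vs. FH to -0.030, of miR-100 in FH vs. FL to 0.21, and of miR-125a to 0.076 in LH vs. LL, 0.16 in FH vs. FL and -0.19 in LL vs. FL. Without single libraries, FH vs. FL ran from -0.062 to 0.44 for miR-99a, -0.19 to 0.13 for miR-100, -0.28 to 0.065 for miR-125a and -0.20 to 0.21 for miR-125b, LH vs. FH from -0.11 to 0.56 for miR-99a and -0.43 to 0.26 for miR-125a, and both phases from -0.033 to 0.30 for miR-125a.

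Of all miRNAs tested, those called numbered 47 in LH vs. LL, and 175 (DESeq2 without filter), 158 (no filter), 14 (clean read share), 94 (without LH1) and 71 (without LL4). In FH vs. FL they numbered 19, and in the same order 118, 93, 6 and, with parity 5, in the fit of 16 libraries 37, without LH4, FL2 and FL4 7, and without 1 library 11 to 43. They were 57 in LH vs. FH (106 and 154 under those first 2 settings), 134 in LL vs. FL (250 with no filter), 104 for both phases (209 and 203) and 59 for the interaction (192 and 122). By library size only the higher and lower calls went from 24 and 23 to 57 and 11 in LH vs. LL, from 73 and 61 to 49 and 88 in LL vs. FL, from 46 and 58 to 26 and 89 for both phases and from 41 and 18 to 29 and 26 for the interaction. Scaling without the members gave 19 and 28 in LH vs. LL, and TMM on known miRNAs 35 and 25 for the interaction.

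Replicate numbers do not pair the libraries, since the deviations of libraries with a shared number correlated at -0.190 to 0.201. With the replicate number as a block, members called were 2, 0, 1, 4, 4 and 2 in the order above, miR-125b being added for both phases at 1.03, miR-125b in FH vs. FL was -0.027, and all miRNAs called were 32 in LH vs. LL, 4 in FH vs. FL and 39 for the interaction. In LH vs. LL, 2 of 4 libraries correlated best with their own number, in LH vs. FH 1 of 4, and in the other comparisons none.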
